A study of Mus musculus with 48 samples.

Results

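The bone morphogenetic protein (BMP) pathway was read from 10 genes: the ID family Id1, Id2, Id3 and Id4, the BMP receptor Bmpr1a, the decoy receptor Bambi, the signalling SMAD Smad9, the inhibitory SMADs Smad6 and Smad7, and the secreted antagonist Nog. They were matched by mouse symbol to the gene identifiers of the deposited tables, which hold 39017 genes each, and each of the 10 was found in all 3 tables. SMART-seq2, which sequences full-length RNA, was applied to 48 libraries of adult neural stem cells (NSCs) cultured from the dentate gyrus of mice 7 to 8 weeks old. Every group carried floxed Setd1a (Setd1a fl/fl), a Hopx-CreERT2 driver and an H2B-GFP reporter, and every group was made quiescent in medium without EGF that held BMP4 and FGF2 at 20 ng/ml each. Setd1a encodes a histone H3K4 methyltransferase. WT cultures received a lentivirus for GFP and Setd1a KO cultures one for Cre-GFP, so that the deletion, Cre itself and the reporter freed by Cre vary together and cannot be told apart. The 12 groups of 4 libraries were WT and KO on days 4, 5, 6 and 9, and WT and KO on day 7 under DMSO, the vehicle, or ORY-1001 (ORY in the labels), an inhibitor of the histone demethylase LSD1. No group was cultured without BMP4, so the response to BMP4 itself was not measured. The paper reports that the quiescence medium was renewed at set intervals. The time since fresh BMP4 and FGF2 could thus differ between days and cannot be told apart from the day of culture.

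Library totals, in M (mega) counts, were 5.81 to 8.4 on day 4, 3.14 to 12.4 on days 5, 6 and 9 and 4.27 to 20.6 on day 7, and these 3 tables were scaled and tested separately. Values are given as CPM, the count of a gene per M counts of its library after TMM scaling, for libraries 1 to 4 in that order. All 10 neural stem cell markers were above 1 CPM in every group, while the summed microglia, fibroblast and neuron markers stayed at or below 24.3 CPM in every library. The oligodendrocyte lineage markers summed to 81.7 to 362 CPM, from 3 of 7 genes above 1 CPM. The endothelial and mural markers summed to 14.8 to 71.5 CPM, from 1 or 2 of 6 genes above 1 CPM. Setd1a itself was listed at 1.29 to 4.01 CPM in WT and 0 to 5.41 CPM in KO libraries, and since counts of a whole gene cannot show the loss of its floxed part, they did not check the genotype. On days 5, 6 and 9 libraries 1 and 3, and libraries 2 and 4, of a group were the closest to each other in all 6 groups (chi-square per degree of freedom 1.78 to 2.43, against 2.82 to 9.2 for the other pairs). Day 7 held close pairs too. Libraries 1 and 2, and 3 and 4, were closest in WT under DMSO (3.88 and 2.92, against 5.78 to 7.81). They were also closest in KO under ORY-1001 (2.66 and 2.79, against 3.83 to 5.35). In KO under DMSO libraries 1 and 3, and 2 and 4, were closest (3.39 and 3.04, against 3.68 to 6.15). The labels do not say what a library number stands for, so p-values measure the spread between these libraries, which may be technical. For Id3, Id1 and Smad6, values within the odd and even split of days 5, 6 and 9 are given. For Bmpr1a the odd-numbered value of day 9 is given, and for Id2 a fit with odd or even number as a term.

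BMP ligands bind pairs of type I and type II receptors, of which BMPR1A is a type I receptor. The active receptor phosphorylates the SMAD1, SMAD5 and SMAD9 proteins, which enter the nucleus with SMAD4 and raise transcription of the Id genes. ID proteins lack a DNA-binding region and hold E proteins in inactive dimers, so that the bHLH partners of E proteins cannot act. The pathway also induces its own inhibitors: SMAD6 and SMAD7 block the receptor or its SMADs, BAMBI is a receptor without a kinase, and the noggin protein encoded by Nog binds BMP outside the cell. In the adult hippocampus, BMP signalling through BMPR1A is known to keep neural stem cells quiescent and noggin to oppose it, and BMP4 with FGF2 is a common way to hold NSC cultures out of the cell cycle.

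Per kilobase of exon, Id2 was the most abundant of the 10 genes, with group means of 581 to 1080 CPM per kilobase. Id3 followed at 85.7 to 223, Bmpr1a at 86.1 to 138, Id1 at 32.1 to 91.4 and Id4 at 11.3 to 23.1 CPM per kilobase. The highest group mean was 19.3 CPM per kilobase for Nog, 7.33 for Smad7, 4.97 for Bambi and 2.26 for Smad6, and that of Smad9 was 1.72. Smad6 rested on 1 to 71 counts per library, Smad7 on 3 to 364 and Smad9 on 8 to 95, so their values carry more counting error than the 6955 to 33771 counts of Id2. At most 4.57% of the exonic length of a member lay on exons of another gene, on the opposite strand and for Id4 and Bmpr1a alone, and strand is lost in this kind of library.

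**Figure D1:**
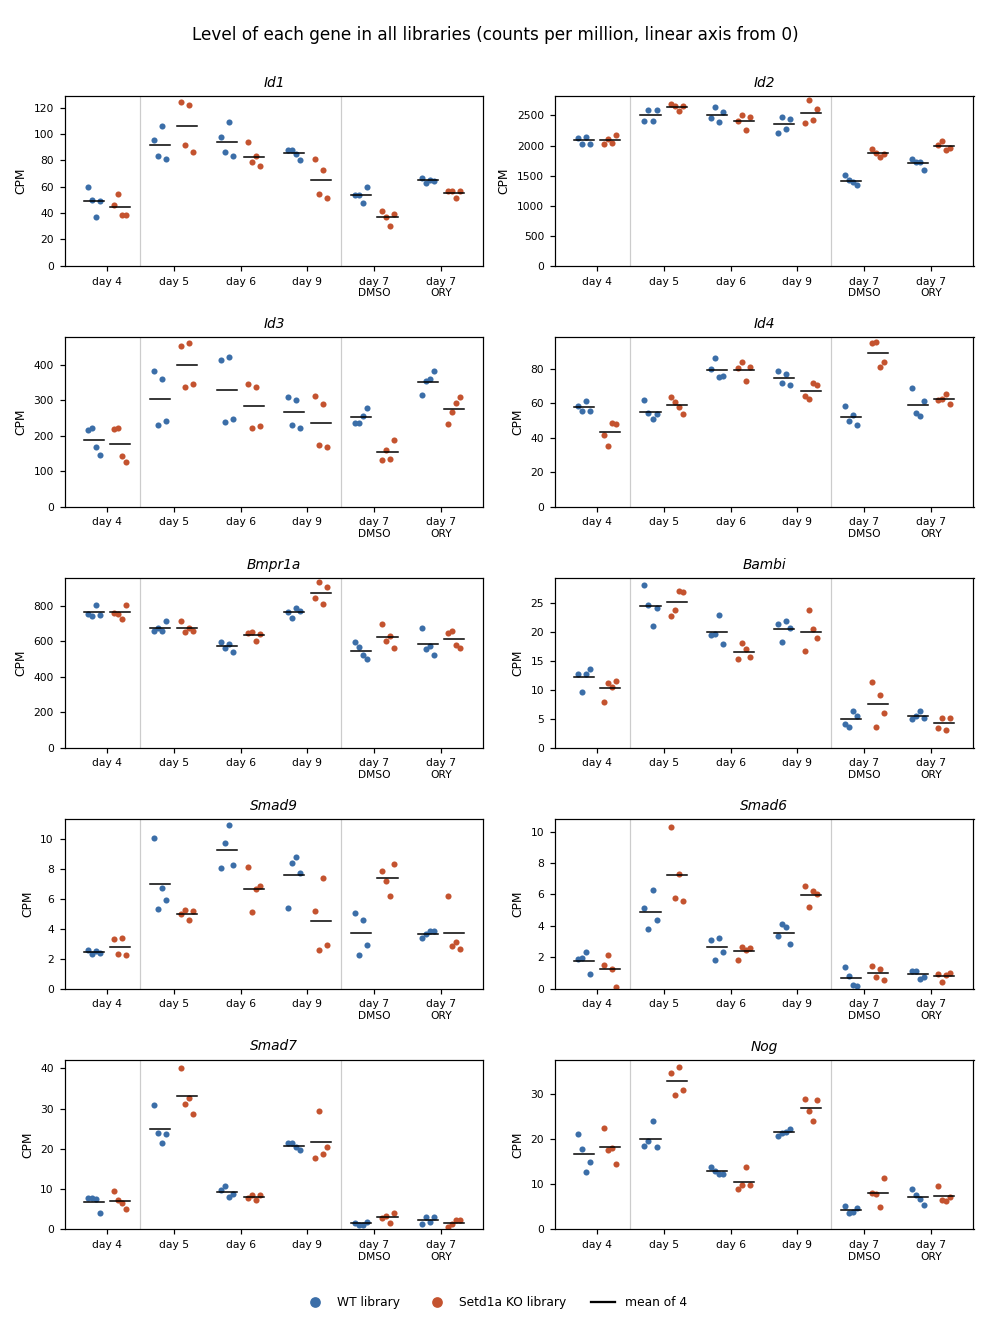
Level of the 10 genes in all 48 libraries, in CPM on a linear axis that starts at 0, with WT in blue, Setd1a KO in orange, libraries 1 to 4 from left to right and the mean of 4 as a line; grey lines part the separately scaled tables. Id2 lies between 1344 and 2751 CPM throughout, while Smad7 spans 0.57 to 40.2 CPM.

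The design asked how these genes differed between KO and WT at each time, and how ORY-1001 and time moved them. KO was first set against WT by edgeR's quasi-likelihood test, with a Benjamini-Hochberg adjusted p below 0.05 taken as a call. On day 4, 1.59% of all tested genes were called, and of the 10 members none was, with 1 at an unadjusted p below 0.05; 1 member was called by DESeq2. On day 5, 15.0% of genes and 2 of 10 members were called, both higher in KO: Nog and Smad7. On day 6, 13.1% of genes and 1 of 10 members, Bmpr1a, were called. On day 9, 11.8% of genes and 3 of 10 members were called, with Bmpr1a and Smad6 higher and Id1 lower in KO, and 5 members were called with the library number as a block. Under DMSO on day 7, 36.0% of genes were called, and so were 7 of the 9 members that had enough counts to be tested. Under ORY-1001 on day 7, 1.15% of genes and 1 of 9 members, Id2, were called. On days 5, 6 and 9 the members' share thus rested on 1 to 3 genes. Each share of all genes is that of the edgeR fit without a block, at the adjusted p. It is no measure for the counts by DESeq2, with the block or at an unadjusted p.

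**Figure D2:**
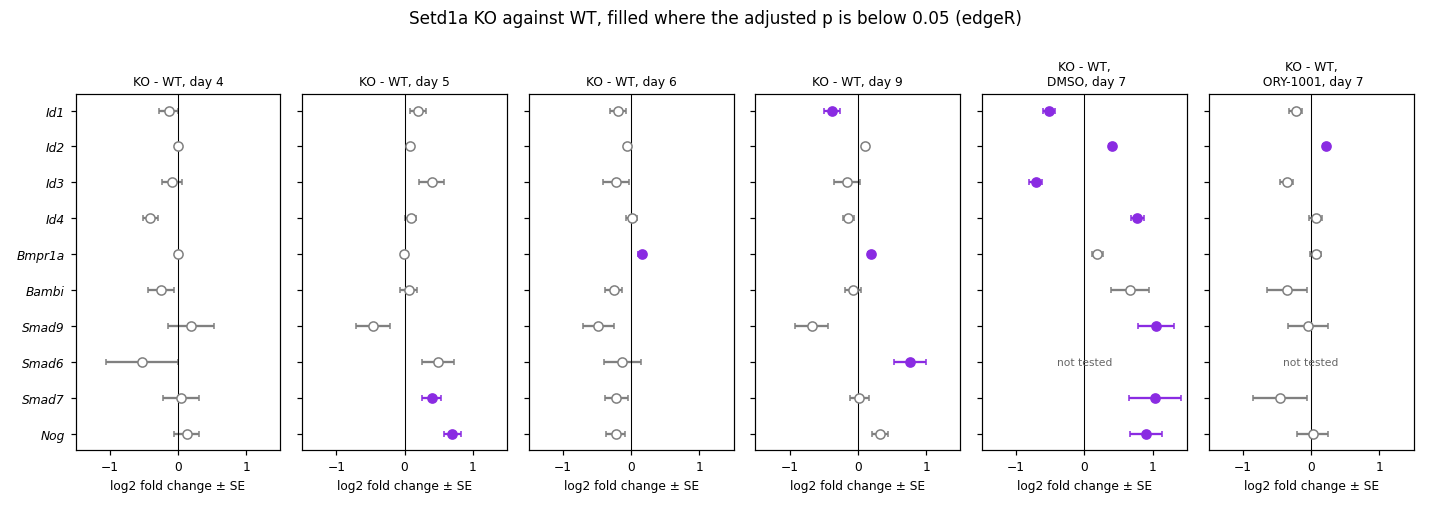
Log2 fold change of Setd1a KO against WT with its standard error for each member in the 6 comparisons, 4 libraries against 4; filled points passed an adjusted p of 0.05 (edgeR). On day 7 under DMSO, 7 points are filled, with Id1 and Id3 below 0 and the other 5 above it; under ORY-1001, Id2 alone is filled.

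The ligand of the medium was not transcribed at a detectable level by the cells. Bmp4 had 0 counts in all 48 libraries, which allows up to 3 counts, or 0.146 to 0.956 CPM, per library. Of 14 BMP ligand genes, 2 had enough counts for a test on days 4 to 6 and 9: Bmp7, a ligand of the same receptors, and Bmp1, a protease that frees BMPs from chordin. Bmp7 was lower in KO on day 6 (2.61 ± 1.19 CPM in WT and 1.13 ± 0.602 CPM in KO, SD, n = 4; log2 fold change -1.19 ± 0.35 SE, adjusted p = 0.0208, edgeR). Bmp1 was lower in KO on day 9 (log2 fold change -0.41, adjusted p = 0.00971, edgeR) and under ORY-1001 on day 7 (-0.55, adjusted p = 0.00713, edgeR).

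Bmpr1a, on chromosome 14 (GRCm38, 34410734 to 34503341, minus strand), had group means of 547 to 874 CPM and moved little. On day 6 it measured 595, 561, 584 and 542 CPM in WT and 648, 651, 601 and 639 CPM in KO. On day 9 it measured 766, 732, 786 and 770 CPM in WT and 843, 936, 812 and 905 CPM in KO. The lowest KO library stood above the highest WT library on both days. The log2 fold changes were 0.15 ± 0.05 (SE, adjusted p = 0.0326) and 0.19 ± 0.05 (adjusted p = 0.00681), by edgeR. The day 6 call was lost after correction for GC content and length (0.09, adjusted p = 0.22) and on leaving out KO library 1, 2 or 4 or WT library 2, 3 or 4 (adjusted p = 0.0579 to 0.139). Both calls were lost over the odd-numbered libraries, where the day 9 difference was 0.09 (adjusted p = 0.238, edgeR), and held over the even-numbered ones. Both were also lost with libraries 1 and 3, and 2 and 4, summed. Bmpr1a fell by 0.24 on the log2 scale from day 5 to day 6 in WT and was higher on day 9 than on day 5 in both genotypes, by 0.18 in WT and 0.37 in KO.

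Bambi, the decoy receptor on chromosome 18, was called in no KO against WT comparison. It fell from day 5 to day 6 in KO, where it measured 22.9, 23.9, 27.1 and 26.9 CPM on day 5 and 15.3, 18.1, 17.1 and 15.8 CPM on day 6, by 0.61 ± 0.12 on the log2 scale (SE, adjusted p = 0.00013, edgeR). On day 7 it had 3.11 to 11.3 CPM, and the KO libraries under DMSO ranged most widely, at 11.3, 3.56, 9.11 and 6.07 CPM. ORY-1001 lowered it in KO by this test (log2 fold change -0.81 ± 0.28, adjusted p = 0.0246, edgeR), but the ranges overlapped and the adjusted p was 0.057 with the library number as a block and 0.0646 to 0.179 without library 1 or 3 of either KO group. Of the 12 receptors and co-receptors listed, 10 were tested on days 5, 6, 7 and 9. Between KO and WT, 1 was called on day 5 (15.0% of all genes), 2 on day 6 (13.1%), 3 on day 9 (11.8%) and 2 under DMSO on day 7 (36.0%), with 1 lower in each of the last 3. Acvr1, a type I receptor, was higher in KO on day 5 (log2 fold change 0.35, adjusted p = 0.0452, edgeR), and Bmpr1b, another, was higher on day 9 (0.35, adjusted p = 0.0349, edgeR). Neo1, which encodes neogenin, was the lower one on day 6 (-0.20, adjusted p = 0.0422) and day 9 (-0.33, adjusted p = 0.000825). Acvr2a, a type II receptor, was higher under DMSO on day 7 (0.46, adjusted p = 0.00303). Bmpr2, the type II partner of BMPR1A, was lower in KO under DMSO on day 7, at 5.74 ± 1.23 against 9.19 ± 1.08 CPM (SD, n = 4; adjusted p = 0.0135, edgeR).

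Among the SMADs, Smad9 (chromosome 3, 54755582 to 54801257, plus strand) was low and changed with ORY-1001 in KO. Under DMSO on day 7 it measured 5.09, 2.26, 4.59 and 2.9 CPM in WT and 7.85, 7.23, 6.23 and 8.35 CPM in KO. Under ORY-1001 it measured 3.36, 3.63, 3.87 and 3.86 CPM in WT and 6.23, 2.82, 3.11 and 2.66 CPM in KO. The KO libraries under DMSO lay above every WT library of both treatments, and KO library 1 under ORY-1001 stood with them while libraries 2 to 4 fell in or below the WT range. KO exceeded WT under DMSO by a log2 fold change of 1.05 ± 0.27 (SE, adjusted p = 0.00308, edgeR), and ORY-1001 lowered Smad9 in KO (-1.05 ± 0.27, adjusted p = 0.00335) and did not move it past the threshold in WT (0.04 ± 0.29, adjusted p = 0.948). The difference of the drug effects was -1.09 ± 0.40 (adjusted p = 0.0603). On days 5, 6 and 9 Smad9 did not pass the test between KO and WT, and its log2 fold change was below 0 on each, against the day 7 direction. It was -0.46 ± 0.25 on day 5 (adjusted p = 0.223) and -0.48 ± 0.23 on day 6 (adjusted p = 0.177), by edgeR. The day 5 groups did not overlap, at 4.59 to 5.28 CPM in KO and 5.33 to 10.1 CPM in WT. On day 9, KO libraries 2 and 4 had 2.61 and 2.93 CPM, while libraries 1 and 3 had 5.17 and 7.41 CPM and the WT libraries 5.37, 8.4, 8.84 and 7.74 CPM, and the log2 fold change was -0.68 ± 0.24 (adjusted p = 0.0622). With the library number as a block, as the day 9 libraries correlated by number, it was -0.70 (adjusted p = 0.0423, edgeR).

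Of the 12 SMADs of this branch and their modulators, the count of calls under DMSO on day 7 was 5 higher and 1 lower of 11 tested, beside 36.0% of all genes called, with a median log2 fold change of 0.33 against -0.02 over all tested genes. Smad5, one of the SMADs that BMP receptors phosphorylate, was the lower one, at 49.5 ± 4.32 CPM in KO and 71.1 ± 4.61 CPM in WT (SD, n = 4; log2 fold change -0.53, adjusted p = 2.15e-05, edgeR). The higher ones besides Smad9 and Smad7 were Ski (0.48), Skil (0.43) and Tob1 (0.37), which encode repressors of SMAD signalling. ORY-1001 lowered 7 and raised 1 of these 11 genes in KO, where 38.7% of all genes were called. On day 6, Smad1 was higher in KO by a log2 fold change of 0.29 (adjusted p = 0.0056, edgeR).

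The ID genes were the members with the lowest adjusted p-values under DMSO on day 7, and they did not move in 1 direction. Under DMSO, Id1 and Id3 were lower in KO and Id2 and Id4 were higher. Id3 (chromosome 4, 136143497 to 136145755, plus strand) measured 236, 237, 257 and 278 CPM in WT and 133, 160, 134 and 187 CPM in KO. Id1 (chromosome 2, 152736251 to 152737410, plus strand) measured 53.7, 53.4, 47.9 and 59.7 CPM in WT and 41.9, 37.1, 30.4 and 39.3 CPM in KO. For both genes every KO library was below every WT library. The log2 fold changes were -0.72 ± 0.10 for Id3 (SE, adjusted p = 1.43e-06) and -0.52 ± 0.09 for Id1 (adjusted p = 8.07e-05), by edgeR.

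Id2 (chromosome 12, 25093799 to 25097140, minus strand) measured 1509, 1425, 1389 and 1344 CPM in WT and 1941, 1878, 1813 and 1859 CPM in KO. Id4 (chromosome 13, 48261228 to 48266026, plus strand) measured 58.3, 49.6, 53.4 and 47.3 CPM in WT and 94.9, 95.6, 81.4 and 84.3 CPM in KO. For both, every KO library was above every WT library. The log2 fold changes were 0.40 ± 0.05 for Id2 (SE, adjusted p = 1.58e-07) and 0.78 ± 0.09 for Id4 (adjusted p = 1.43e-07), by edgeR. These 4 calls held under each of the 18 alternatives run. With library size alone, the median of all genes lay at -0.12 in this comparison, against -0.02 after TMM, and the 4 directions were the same.

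ORY-1001 moved Id1 and Id3 upward in both genotypes. In KO, Id3 rose to 233, 266, 292 and 308 CPM and Id1 to 56.4, 56.7, 51.8 and 56.8 CPM. In WT, Id3 rose to 314, 354, 359 and 383 CPM and Id1 to 66.6, 62.8, 65.4 and 64.6 CPM. The groups treated with ORY-1001 did not overlap their DMSO groups in either gene. In KO, where 38.7% of all genes and 5 of 9 members were called, the log2 fold changes were 0.84 ± 0.10 for Id3 (SE, adjusted p = 8.29e-08) and 0.57 ± 0.09 for Id1 (adjusted p = 2.2e-05), by edgeR. In WT, where 15.1% of genes and 4 of 9 members were called, they were 0.49 ± 0.09 for Id3 (adjusted p = 0.000733) and 0.28 ± 0.09 for Id1 (adjusted p = 0.037). The call of Id1 in WT was lost under 10 of 18 alternatives (adjusted p up to 0.126), which included leaving out DMSO library 1, 2 or 3 or any ORY-1001 library (0.0559 to 0.121).

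**Figure D3:**
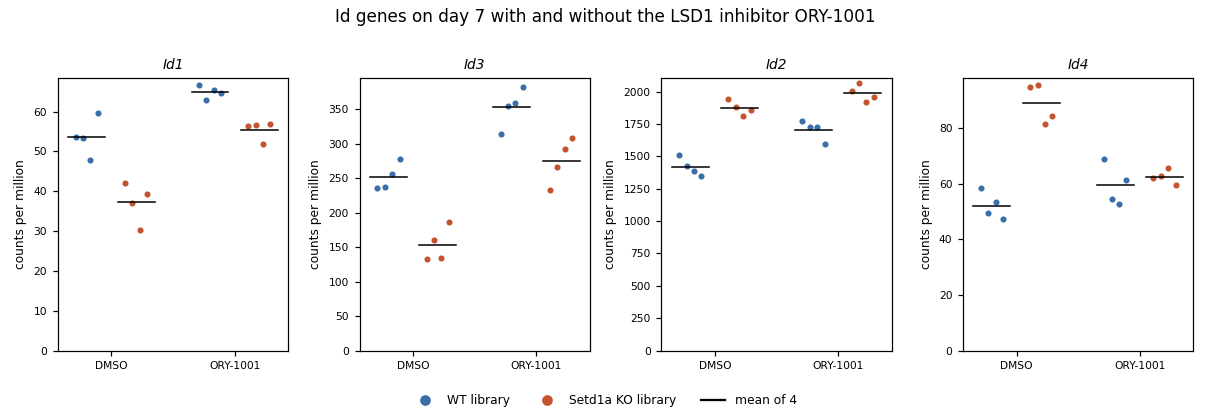
Id1, Id3, Id2 and Id4 on day 7 in CPM on axes that start at 0, with 4 libraries per group and their mean as a line. Under DMSO the KO libraries lie below the WT libraries for Id1 and Id3 and above them for Id2 and Id4; under ORY-1001 the KO libraries of Id4 (59.5 to 65.6 CPM) lie within the range of WT (52.8 to 68.8 CPM).

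Id4 moved the other way in KO. ORY-1001 lowered it in KO to 62.1, 62.8, 65.6 and 59.5 CPM, below every KO library under DMSO (log2 fold change -0.51 ± 0.09 SE, adjusted p = 4.73e-05, edgeR). In WT it measured 68.8, 54.7, 52.8 and 61.2 CPM under ORY-1001 (0.19 ± 0.09, adjusted p = 0.166). The drug effects differed between KO and WT by -0.71 ± 0.13 on the log2 scale (adjusted p = 0.000247, edgeR), and this call held under all 26 alternatives run. Summed libraries and fits by odd or even library number were not among the 26. In that test of the difference, 17.9% of genes and 1 of 9 members were called, and 8 of 9 had an unadjusted p below 0.05. The share of 17.9% is of adjusted p-values in this fit. It is thus no measure for the 8 or for the counts under other fits. The count of members was 4 with the current form of the test, 5 with GC and length correction and 6 with the library number as a block. It was 2 to 4 without WT library 1 or 3 or KO library 2, 3 or 4 under DMSO, or WT library 1 or 4 or KO library 1 or 2 under ORY-1001. Id2 was raised by ORY-1001 in WT (0.27 ± 0.05, adjusted p = 0.000276) and changed by 0.09 ± 0.05 in KO (adjusted p = 0.157).

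Under ORY-1001, Id2 was the ID gene called between KO and WT. It was higher in KO, at 2005, 2068, 1919 and 1954 CPM against 1771, 1726, 1726 and 1594 CPM in WT (log2 fold change 0.22 ± 0.05 SE, adjusted p = 0.0144, edgeR), a call lost without WT library 4 (adjusted p = 0.0612) or KO library 2 (0.0761). Id3 stayed below WT in every KO library without passing the test (-0.36 ± 0.09, adjusted p = 0.0552), and it passed after GC and length correction (adjusted p = 0.0099). Id1 also lay below WT in every KO library and did not pass the test (-0.23 ± 0.09, adjusted p = 0.231). Id4 differed by 0.07 ± 0.09 (adjusted p = 0.788), with overlap. The comparisons between the treatments and between the genotypes share these groups, so their values are not independent.

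The promoters of 6 of the 10 members were in the RefSeq table used here (GRCm38.p6, 250 bases before to 50 after the RefSeq start), and the 4 whose genes were called under DMSO on day 7 are shown. They were searched for GGCGCC, a GC-rich sequence that SMAD proteins of the BMP branch can bind, which reads the same on both strands. Capitals mark GGCGCC.
Id2 (chr12:25096043-25096342, minus strand): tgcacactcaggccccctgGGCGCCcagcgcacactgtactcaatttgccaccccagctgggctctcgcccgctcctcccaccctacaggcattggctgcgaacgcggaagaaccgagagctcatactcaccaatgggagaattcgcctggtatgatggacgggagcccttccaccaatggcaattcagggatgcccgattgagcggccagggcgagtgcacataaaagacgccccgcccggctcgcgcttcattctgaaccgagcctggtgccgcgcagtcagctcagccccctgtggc
Id4 (chr13:48260866-48261165, plus strand): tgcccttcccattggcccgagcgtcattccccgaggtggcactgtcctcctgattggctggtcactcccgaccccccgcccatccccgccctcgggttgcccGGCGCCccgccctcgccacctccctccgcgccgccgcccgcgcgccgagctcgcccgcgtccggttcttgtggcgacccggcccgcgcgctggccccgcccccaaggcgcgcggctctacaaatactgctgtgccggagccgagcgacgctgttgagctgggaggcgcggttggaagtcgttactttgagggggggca
Smad9 (chr3:54755332-54755631, plus strand): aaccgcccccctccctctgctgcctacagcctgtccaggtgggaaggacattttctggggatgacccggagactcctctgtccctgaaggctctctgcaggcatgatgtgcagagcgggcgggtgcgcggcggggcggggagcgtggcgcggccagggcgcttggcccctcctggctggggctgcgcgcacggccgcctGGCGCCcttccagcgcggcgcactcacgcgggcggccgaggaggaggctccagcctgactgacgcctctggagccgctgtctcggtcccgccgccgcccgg
Id3 (chr4:136143572-136143871, plus strand): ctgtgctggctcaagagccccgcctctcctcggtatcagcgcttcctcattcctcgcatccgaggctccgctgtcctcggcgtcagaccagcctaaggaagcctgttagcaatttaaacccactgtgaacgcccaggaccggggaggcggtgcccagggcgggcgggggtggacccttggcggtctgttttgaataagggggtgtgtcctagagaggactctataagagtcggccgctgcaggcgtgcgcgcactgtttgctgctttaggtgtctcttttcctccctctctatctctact
The sequence GGCGCC stood once each in the windows of Id2, Id4, Smad9 and Bmpr1a. In Id2, Id4 and Smad9 it lay from 231 to 226, 148 to 143 and 51 to 46 bases before the start. It was not in the windows of Id3 and Smad6. Of all 32851 promoters of this length, 11.9% held it. The windows of the 6 members were 60 to 79.3% G or C, against a median of 52.7% over all promoters. GGCGCC holds G and C alone, so this share is not matched to the members, and the part of base content was not tested. The shorter SMAD box GTCT, or AGAC on the other strand, stood 0 times in Id4, 1 time in Id2 and in Bmpr1a, 2 times in Smad9 and in Smad6, 3 times in Id3 and in 88% of all promoters. A match is a description of these letters and not a site of binding, and Id1, Smad7, Bambi and Nog were not analysed here.

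Other measures moved with the day 7 groups. Under DMSO the summed neural stem cell markers, which include Id4 and Gfap, were 10980 to 12370 CPM in WT and 14800 to 15960 CPM in KO. Of these 10 markers, 6 were called higher and 2 lower in KO, beside 36.0% of all genes. The astrocyte markers summed to 2837 to 3319 CPM in WT and 3787 to 4210 CPM in KO. The oligodendrocyte lineage markers did not overlap either, at 176 to 200 CPM in WT and 327 to 362 CPM in KO. Of the 3 tested, 1 was called, higher in KO, and their median log2 fold change was 0.05. The summed markers of cycling cells overlapped, at 88.3 to 102 CPM in WT and 76.9 to 97 CPM in KO. ORY-1001 groups differed from their DMSO groups too. Of all genes, 15.1% were called for ORY-1001 in WT and 38.7% in KO. Of the 10 neural stem cell markers, ORY-1001 raised 3 and lowered 4 past the threshold in WT, and raised 2 and lowered 6 in KO. Of the 3 tested oligodendrocyte lineage genes, 1 was called higher in WT (median log2 fold change 0.14) and 0 were called in KO. In WT under ORY-1001 the cycling markers stood at 119 to 143 CPM, the astrocyte markers at 3933 to 4748 CPM and the oligodendrocyte lineage markers at 230 to 264 CPM, all above the DMSO range, with 6 of 8 tested cycling genes called higher (median log2 fold change 0.92), while the neural stem cell markers overlapped it at 10860 to 12020 CPM. In KO under ORY-1001 the neural stem cell markers were at 10830 to 11980 CPM, below the DMSO range, the cycling markers at 97.3 to 109 CPM, above it, and the astrocyte and oligodendrocyte lineage markers overlapped it at 4125 to 4946 and 323 to 358 CPM. In bulk libraries fewer cells of a type and less RNA per cell cannot be told apart, and the part of these markers in the member values was not tested. Gfap, a glial filament gene among the neural stem cell markers, was lower in KO under DMSO, against the direction of their sum. It measured 520 ± 50.1 CPM in WT and 99.4 ± 16.9 CPM in KO under DMSO, and 196 ± 15.6 and 126 ± 14.8 CPM under ORY-1001 (SD, n = 4).

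On days 5, 6 and 9 Id3 split by library number within every group. It measured 381, 230, 359 and 242 CPM in WT and 453, 338, 461 and 346 CPM in KO on day 5. It measured 412, 238, 421 and 247 CPM in WT and 346, 222, 336 and 228 CPM in KO on day 6, and 310, 231, 299 and 223 CPM in WT and 311, 175, 288 and 169 CPM in KO on day 9. Libraries 1 and 3 were above libraries 2 and 4 in all 6 groups, by 0.42 to 0.80 on the log2 scale, and 1.47% of all tested genes stood this way in all 6. Id1 did so in 5 of 6 groups, and Id2 had the odd-numbered libraries lower in 5 of 6. Gfap, whose level was like that of both Id3 and Id1 over these 24 libraries (Pearson r 0.906 and 0.877), showed the split in all 6 groups too.

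**Figure D4:**
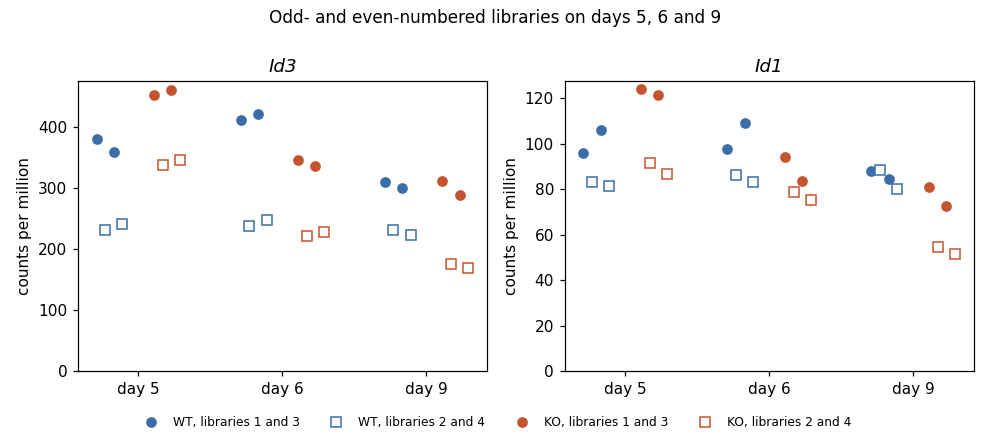
Id3 and Id1 on days 5, 6 and 9 in CPM on axes that start at 0, with libraries 1 and 3 as filled circles and libraries 2 and 4 as open squares. For Id3 the circles lie above the squares in all 6 groups; on day 5 both kinds are higher in KO than in WT, and on day 9 the squares are lower in KO (169 and 175 CPM) than in WT (223 and 231 CPM) while the circles overlap.

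Whether Id3 was called depended on the fit. Without a term for the split, the KO against WT log2 fold changes were 0.39 ± 0.19 on day 5 (SE, adjusted p = 0.162), -0.22 ± 0.19 on day 6 (adjusted p = 0.489) and -0.16 ± 0.19 on day 9 (adjusted p = 0.655), by edgeR. Id3 on day 5 also passed with only the compared groups in the fit (adjusted p = 0.0168), and with no filter on low counts it passed on day 5 (0.40, adjusted p = 4.58e-08) and day 6 (-0.25, adjusted p = 0.00321). With libraries 1 and 3, and 2 and 4, summed, which leaves 2 values per group, it passed on none of these days (adjusted p = 0.523, 0.77 and 0.864). With odd or even number as a term, chosen after seeing the data, they were 0.42 ± 0.06 (adjusted p = 1.17e-07), -0.21 ± 0.06 (adjusted p = 0.00682) and -0.20 ± 0.06 (adjusted p = 0.0133). Within the odd-numbered libraries they were 0.30, -0.28 and -0.03, and within the even-numbered ones 0.53, -0.12 and -0.39. Id3 was thus higher in KO on day 5 in both the odd- and the even-numbered libraries, while the later differences passed the test in the odd-numbered libraries on day 6 and in the even-numbered ones on day 9. Where libraries 1 and 3, or 2 and 4, are repeats of one culture, these p-values measure the spread between repeats.

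Id1 was lower in KO on day 9, at 80.8, 54.5, 72.4 and 51.4 CPM against 88.2, 88.2, 84.7 and 80.1 CPM in WT (log2 fold change -0.38 ± 0.12 SE, adjusted p = 0.0377, edgeR). KO library 1 overlapped the WT range and the KO libraries 2 and 4 were the lowest. The call was lost without KO library 2 or 4 or WT library 1, 2 or 3 (adjusted p = 0.0622 to 0.171). The difference was -0.17 ± 0.09 over the odd-numbered libraries (adjusted p = 0.168) and -0.67 ± 0.10 over the even-numbered ones (adjusted p = 8.19e-07), and 0.347 was the adjusted p with libraries 1 and 3, and 2 and 4, summed. On day 5, where Id1 was not called, it was higher in KO over the odd-numbered libraries (0.27, adjusted p = 0.03) and not past the threshold over the even-numbered ones (0.11, adjusted p = 0.376). From day 5 to day 9, Id1 fell by 0.67 ± 0.12 on the log2 scale in KO (adjusted p = 6.55e-05) and changed by -0.10 ± 0.12 in WT (adjusted p = 0.58). The change differed between the genotypes by -0.57 ± 0.17 (adjusted p = 0.0277, edgeR), where 9.21% of genes and 1 of 10 members were called. It lost its call after GC and length correction (-0.40, adjusted p = 0.122) and without day 5 library 1 or 3 of KO or 2 or 4 of WT, or day 9 library 2 or 4 of KO or 1 of WT (adjusted p = 0.0502 to 0.0846). Id3 fell over the same days by 0.74 ± 0.19 in KO (adjusted p = 0.00361) and changed by -0.19 ± 0.19 in WT (adjusted p = 0.517), with a difference of -0.55 ± 0.27 (adjusted p = 0.205) that passed with the odd or even number as a term (-0.62, adjusted p = 1.62e-07).

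Id4 and Id2 were not called between KO and WT on days 4, 5, 6 and 9. On day 4 Id4 measured 58.3, 55.4, 61.5 and 55.8 CPM in WT and 41.9, 35.4, 48.7 and 48.2 CPM in KO, without overlap (log2 fold change -0.40 ± 0.11 SE, adjusted p = 0.0677, edgeR), and DESeq2 called it (adjusted p = 0.0157). In time Id4 rose from day 5 to day 6 in WT (0.52 ± 0.08, adjusted p = 1.28e-06) and in KO (0.44 ± 0.08, adjusted p = 2.26e-05), against the direction of the inhibitors described next. Id2 was within 0.11 on the log2 scale between KO and WT on these 4 days. With the library number as a block its day 9 difference of 0.11 was called (adjusted p = 0.043), as it was with the odd or even number as a term (0.11, adjusted p = 0.00958).

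Of the 15 genes listed as partners of ID proteins or related bHLH factors, 11 were tested on day 7, and under DMSO 6 were higher and 1 was lower in KO, beside 36.0% of all genes called, with a median log2 fold change of 0.52 against -0.02 over all tested genes. Usp1, a deubiquitinase that stabilises ID proteins, was higher at 25.6 ± 3.54 against 13.2 ± 2.05 CPM (log2 fold change 0.98, adjusted p = 8.01e-06, edgeR), and so was Huwe1, a ubiquitin ligase (0.27, adjusted p = 0.00556). Tcf3, an E protein, was higher by 0.52 and Tcf12, another, had a log2 fold change of -0.41.

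The inhibitors Nog, Smad7 and Smad6 moved together over the days, and the part of medium renewal in this was not tested. Nog (chromosome 11, 89300638 to 89302332, minus strand) measured 18.3, 19.5, 24 and 18.2 CPM in WT and 34.6, 29.7, 35.9 and 30.9 CPM in KO on day 5. On day 6 it measured 13.9, 12.9, 12.2 and 12.3 CPM in WT and 9.02, 9.86, 13.7 and 9.79 CPM in KO. On day 9 it was back at 20.6, 21.3, 21.6 and 22.3 CPM in WT and 28.8, 26.1, 23.9 and 28.6 CPM in KO. Every KO library of Nog stood above every WT library on days 5 and 9, and the groups overlapped on day 6. The KO against WT log2 fold changes were 0.70 ± 0.12 on day 5 (SE, adjusted p = 0.000147), -0.23 ± 0.14 on day 6 (adjusted p = 0.315) and 0.33 ± 0.12 on day 9 (adjusted p = 0.0746), by edgeR. The day 5 call held under all 22 alternatives, with values of 0.52 to 0.81.

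**Figure D5:**
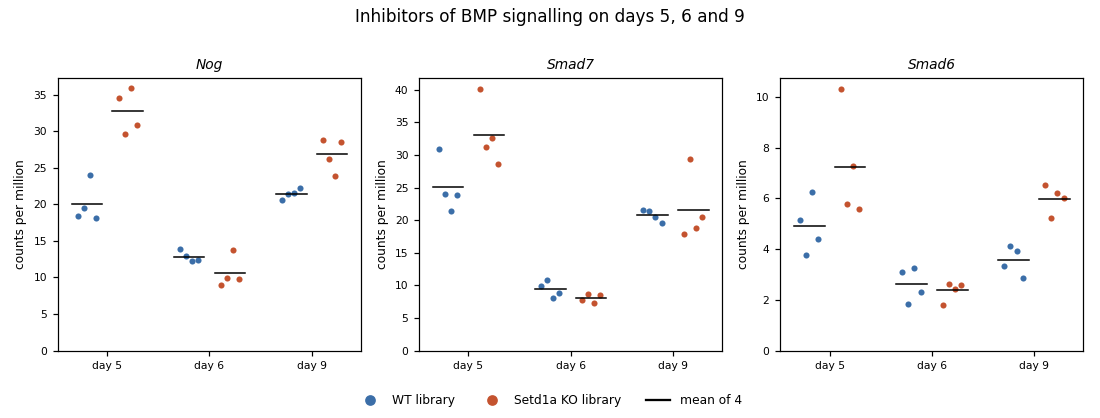
Nog, Smad7 and Smad6 on days 5, 6 and 9 in CPM on axes that start at 0, with 4 libraries per group and their mean as a line. All 3 are lower on day 6 than on day 5 in both genotypes; the KO libraries lie above the WT libraries for Nog on days 5 and 9 and for Smad6 on day 9.

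Smad7 (chromosome 18, 75367529 to 75395935, plus strand) measured 30.9, 24, 21.4 and 23.8 CPM in WT and 40.2, 31.2, 32.5 and 28.6 CPM in KO on day 5. On day 6 it was down to 9.86, 10.9, 8.07 and 8.81 CPM in WT and 7.82, 8.62, 7.25 and 8.57 CPM in KO. Smad6 (chromosome 9, 63953076 to 64022059, minus strand) measured 5.14, 3.77, 6.26 and 4.4 CPM in WT and 10.3, 5.76, 7.29 and 5.58 CPM in KO on day 5. On day 6 it had 3.11, 1.84, 3.26 and 2.32 CPM in WT and 1.8, 2.64, 2.45 and 2.6 CPM in KO. No day 6 library of either gene reached its day 5 group of the same genotype.

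From day 5 to day 6, 44.1% of all genes were called in WT and 43.0% in KO, with 5 and 8 of 10 members. Smad7 fell by 1.41 ± 0.15 on the log2 scale in WT (SE, adjusted p = 9.99e-10) and by 2.03 ± 0.15 in KO (adjusted p = 2.49e-13). Nog fell by 0.65 ± 0.13 in WT (adjusted p = 0.000113) and by 1.57 ± 0.13 in KO (adjusted p = 2.3e-12). Smad6 fell by 0.89 ± 0.25 in WT (adjusted p = 0.00421) and by 1.51 ± 0.25 in KO (adjusted p = 6.12e-06), all by edgeR. These 6 calls held under all 22 alternatives. The fall differed between genotypes for Nog, by -0.92 ± 0.19 (adjusted p = 0.000842), in a test that called 12.6% of genes and 1 of 10 members, and the difference was -0.61 ± 0.22 for Smad7 (adjusted p = 0.0595) and -0.62 ± 0.36 for Smad6 (adjusted p = 0.275). In KO, Id1, Id2 and Id3 fell as well, by 0.35, 0.13 and 0.49 on the log2 scale (adjusted p = 0.0181, 0.0226 and 0.0324), and Id1 and Id3 lost their calls after GC and length correction (adjusted p = 0.126 and 0.0747). Id1 lost it also without KO day 5 library 1 or 3 or day 6 library 4 (0.0577 to 0.0951), Id3 without day 5 library 1 or 3 or day 6 library 2 or 4 (0.0892 to 0.123) and Id2 without day 6 library 3 (0.0964).

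From day 5 to day 9, 22.7% of genes were called in WT and 24.4% in KO, with 2 and 5 of 10 members. In WT, Bmpr1a and Id4 were called, both higher, with Id4 up by a log2 fold change of 0.44 ± 0.08 (SE, adjusted p = 7.79e-05, edgeR). In KO, Smad7 fell by 0.64 ± 0.14 (adjusted p = 0.000718) and Bambi by 0.37 ± 0.12 (adjusted p = 0.0259), and Id1, Id3 and Bmpr1a were called too. Bambi lost its call under 7 of 22 alternatives (adjusted p up to 0.181), which included leaving out KO day 5 library 3 or 4 or day 9 library 1 or 4 (0.0614 to 0.13), and Smad7 lost its call after GC and length correction (-0.39, adjusted p = 0.0839). Smad6 was higher in KO than in WT on day 9, at 6.52, 5.23, 6.2 and 6.02 CPM against 3.34, 4.13, 3.91 and 2.86 CPM, without overlap (0.77 ± 0.23, adjusted p = 0.0278). That call was lost under 10 of 22 alternatives (adjusted p up to 0.244), which included leaving out KO library 1, 3 or 4 or WT library 1 or 4 (0.0502 to 0.0837). The Smad6 difference was 0.80 over the odd-numbered libraries (adjusted p = 0.0502) and 0.74 over the even-numbered ones (adjusted p = 0.143).

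GC content moved with the log2 fold change on day 5 and in other comparisons. Its Spearman correlation was -0.375 for day 9 against day 5 in KO. It was -0.386 and -0.37 for the genotype differences of the change from day 5 to day 6 and to day 9. Exonic GC content was 56.2% in Nog, 58.6% in Smad7 and 60.5% in Smad6, against 42.6% in Id4, and over the tested genes of day 5 the log2 fold change had a Spearman correlation of 0.374 with GC content. After correction for GC content and length, Nog was still called (0.52, adjusted p = 0.00345), while Smad7 went from 0.39 ± 0.14 (adjusted p = 0.0463) to 0.15 ± 0.16 (adjusted p = 0.625, edgeR). Smad7 on day 5 also lost its call without KO library 1, 2 or 3 or WT library 2, 3 or 4 (adjusted p = 0.0653 to 0.155). Markers of cycling cells moved with time and, on days 6 and 9, with genotype. They summed to 376 to 403 CPM in WT and 361 to 391 CPM in KO on day 5, 167 to 175 and 113 to 130 CPM on day 6, and 292 to 310 and 335 to 399 CPM on day 9. Of 10 such genes, 6 were lower in KO on day 6 (median log2 fold change -0.61) and 4 were higher on day 9 (0.40), beside 13.1% and 11.8% of all genes called. In the test of the change from day 5 to day 6 between genotypes, which called Nog and 12.6% of all genes, 6 of the 10 were called, all with a larger fall in KO (median -0.58). The part of these markers in the KO against WT values and the time courses was not tested.

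On day 7, Nog and Smad7 were at or below 11.4 and 4.18 CPM in every library. Nog measured 5.09, 3.66, 3.87 and 4.83 CPM in WT and 7.95, 7.85, 5.01 and 11.4 CPM in KO under DMSO, and Smad7 1.7, 1.2, 1.21 and 1.93 CPM in WT and 2.83, 3.43, 1.52 and 4.18 CPM in KO. KO exceeded WT by 0.91 ± 0.23 for Nog (SE, adjusted p = 0.00319) and 1.04 ± 0.38 for Smad7 (adjusted p = 0.0366), by edgeR, and in both genes the lowest KO library overlapped the WT range. Smad7 lost this call with library size only (adjusted p = 0.0593) and without WT library 2 or 3 or KO library 1, 2 or 4 (0.0576 to 0.122). ORY-1001 raised Nog in WT to 8.95, 7.71, 6.82 and 5.47 CPM (0.76 ± 0.24, adjusted p = 0.0303), and in KO it measured 9.63, 6.44, 6.38 and 7.09 CPM (-0.12 ± 0.22, adjusted p = 0.702). The call in WT was lost without DMSO library 2 or 3 or ORY-1001 library 1, 2 or 3 (adjusted p = 0.0539 to 0.116). Smad6, at 0.19 to 1.42 CPM, was too low on day 7 to be tested.

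Of 13 BMP antagonists, 9 were tested on days 5, 6 and 9. On day 5, 3 were higher and 1 was lower in KO, beside 15.0% of all genes called, with a median log2 fold change of 0.21 against 0.02 over all tested genes. Fst, which encodes the activin and BMP binding protein follistatin, was higher beside Nog, at 6.25 ± 1.17 against 2.76 ± 0.735 CPM (SD, n = 4; log2 fold change 1.18, adjusted p = 0.00517, edgeR). Chrdl1, a chordin-like antagonist, was lower in KO on days 5, 6 and 9 and under DMSO on day 7, by log2 fold changes of -0.30, -0.26, -0.35 and -0.40 (adjusted p = 0.0141, 0.0473, 0.00579 and 0.0104). Of 17 BMP target genes, which include 9 members, 12 were tested on day 7 and 10 were called under DMSO, 7 higher and 3 lower, beside 36.0% of all genes. Of these 10, 7 are the members already counted. Beyond the members, Msx1 was higher at 7.67 ± 0.646 against 4.18 ± 0.527 CPM and Hey1 at 34.2 ± 0.853 against 25.8 ± 3.75 CPM, and Runx2 was lower at 0.814 ± 0.383 against 1.7 ± 0.651 CPM. Of 11 genes of the TGF-beta branch, 7 were tested in that comparison and 1 was called, Tgfbr1 (-0.51, adjusted p = 0.00284, edgeR).

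Over the 24 libraries of days 5, 6 and 9, the log2 levels of Nog, Smad6 and Smad7 ran together (Pearson r 0.822 to 0.887), as did those of Id1 and Id3 (0.872), and Id4 ran against Smad6, Smad7 and Nog (-0.679, -0.714 and -0.659). Among 6401 genes whose mean log2 CPM reached 4, the most like Smad7 were Nptx1 (0.97), Lyn (0.965) and Hip1 (0.962), and the most like Nog were Syt11, Tnfrsf12a and Ccnd1 (0.929 to 0.93). Id3 was most like Ntmt1 (0.945), Id4 most like Cpe (0.905), Id2 most like Slc35a4 (0.928) and Bmpr1a most like Tfrc (0.946). These 24 points share libraries, depth, GC trend and the steps between 3 days, so the values are a description.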

How the data were processed

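The deposited files were 3 tables of raw gene counts, which the authors made from SMART-seq2 reads, a method that keeps no strand, by demultiplexing with bcl2fastq 2.17.1.14, trimming with Trimmomatic 0.32 and mapping to GRCm38 with STAR 2.5.2a. Uniquely mapped reads per gene were counted, without normalization. At most 0.202% of counts had no gene symbol. The 3 tables were fitted separately, with 1 coefficient per group, by edgeR 4.0.16 (R 4.3.3; legacy quasi-likelihood F test, TMM scaling, genes with a minimum count of 10 by filterByExpr and a total of 15), and p-values were adjusted over all tested genes by Benjamini-Hochberg at 0.05, over 11430, 12549 and 11952 genes on day 4, days 5, 6 and 9, and day 7. Libraries were grouped by their labels, 4 per group. The fit was tested on simulated data. Members and gene lists were chosen with earlier results of these data known. The 10 members are always named, other list genes only where a KO against WT comparison called them, and for members whose mean log2 CPM reached 3, the 3 genes most alike over days 5, 6 and 9. Library numbers were checked for pairing: over genes whose mean log2 CPM reached 4, deviations of same-numbered libraries correlated above 0.1 in all 4 pairs for KO against WT on days 6 and 9 (0.156 to 0.344), ORY-1001 in KO (0.129 to 0.274), day 6 against day 5 in both genotypes and day 9 against day 5 in WT (0.103 to 0.235), which were taken as paired from the data and not from the labels. The main tests held no block even there, and the pairing entered as an alternative alone. The part of the odd and even split in these correlations was not tested. Alternatives were other scaling, filters, DESeq2 1.42.0, the current test form, fewer groups in the fit, a replicate block, GC and length correction (mgcv 1.9.3), summed libraries and each library left out, and, chosen after seeing the data, odd or even library number as a term or alone. The results of 1 listed gene are not reported here.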

Additional observations from a re-analysis of the deposited data

Results flagged for a closer look

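In 4 of 120 groups of 4 libraries, 1 library stood far from the other 3, where chance flags about 1 in 20 groups, or 6.0 of 120. Bmpr1a in WT day 4 library 3 was at 805 CPM, with the others at 743 to 753 CPM. Smad7 in WT day 4 library 4 was at 4.04 CPM, with the others at 7.65 to 7.91 CPM. Id1 in KO day 7 library 3 under ORY-1001 was at 51.8 CPM, with the others at 56.4 to 56.8 CPM. Smad9 in KO day 7 library 1 under ORY-1001 was at 6.23 CPM, with the others at 2.66 to 3.11 CPM.

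For 3 members the effect of time or drug differed between KO and WT in a test of the difference itself (edgeR). The effect of ORY-1001 on Id4 was lower in KO by -0.71 on the log2 scale, the change of Nog from day 5 to day 6 by -0.92 and the change of Id1 from day 5 to day 9 by -0.57.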

How the results depend on the processing

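Of 46 calls of members, 27 held under every alternative run, 19 were lost under at least 1, and none of 964 alternative values reversed. Summed libraries and fits by odd or even library number were run on days 5, 6 and 9 alone. The counts of members below stand without the share of all genes called under each alternative. The count of members called between KO and WT on day 4 was 0, and 1 with no filter, DESeq2 or the replicate block. On day 5 it was 2, and 1 with RLE size factors, GC and length correction with or without the replicate block, or summed libraries, and 4 in odd-numbered libraries. On day 6 it was 1, 0 with GC and length correction with or without the replicate block or summed libraries, and 2 with the parity term. On day 9 it was 3, 1 with only the groups compared, 5 with the replicate block, alone or with GC and length correction, 0 with summed or odd-numbered libraries, 6 with the parity term and 5 in even-numbered libraries. Under ORY-1001 on day 7 it was 1, and 2 with library size only, no filter, DESeq2, the current test form, only the groups compared, the replicate block, or GC and length correction with or without it. The difference of the drug effects gave 1 member, 2 with library size only, 3 with no filter, 4 with the current form, 5 with GC and length correction and 6 with the replicate block, alone or with GC and length correction. Day 6 against day 5 in KO gave 8, and 5 with summed libraries. Day 9 against day 5 gave 2 in WT, 1 with summed or even-numbered libraries and 4 with the parity term or odd-numbered libraries, and 5 in KO, 3 with summed libraries. The genotype difference of the change to day 6 gave 1, 2 with library size only or only the groups compared, 3 with no filter, the replicate block, odd- or even-numbered libraries, 0 with summed libraries and 5 with the parity term. That of the change to day 9 gave 1, 2 with no filter, DESeq2 or GC and length correction with the replicate block, 3 with the replicate block, the parity term or odd-numbered libraries, 4 in even-numbered libraries and 0 with summed libraries. The cause of these moves was not tested, except that summing leaves 2 values per group.

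Leaving out 1 library at a time gave 0 to 0 members on day 4, 1 to 2 on day 5, 0 to 1 on day 6, 1 to 3 on day 9, 6 to 8 under DMSO and 0 to 2 under ORY-1001 on day 7, 4 to 5 for ORY-1001 in KO, 2 to 4 in WT and 1 to 4 for their difference. It gave 5 to 6 and 6 to 8 for day 6 against day 5 in WT and KO, 2 to 2 and 4 to 6 for day 9, and 1 to 2 and 0 to 2 for the genotype differences. In comparisons taken as paired, the replicate block added Id2 and Smad9 on day 9 and removed Bambi for ORY-1001 in KO. With library size only, the share of all calls that were higher was 30.5% in place of 47.0% between KO and WT under DMSO, 25.7% in place of 48.6% under ORY-1001, 65.1% in place of 52.6% for ORY-1001 in KO, 67.5% in place of 56.0% for the difference of the drug effects, 52.9% in place of 41.5% on day 5, and 39.8% and 37.5% in place of 49.9% and 54.9% for day 9 against day 5 in WT and KO. Smad6, Smad7 and Smad9 are limited by their counts.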
